A study of Mus musculus with 8 samples.

Results

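Alpl, Nt5e, Enpp1, Entpd1 and Ank are 5 genes whose products handle phosphate, pyrophosphate and nucleotides outside the cell. In embryonic mouse molar epithelium, a conditional knockout of the forkhead transcription factor Foxi3 was compared with wild type for these 5 genes. They were taken from the expression table by their Ensembl gene identifiers, which are ENSMUSG00000028766, ENSMUSG00000032420, ENSMUSG00000037370, ENSMUSG00000048120 and ENSMUSG00000022265 in that order. All 5 identifiers were among the 26165 genes of the table, and none was dropped. The gene set was chosen by the differences between cKO and wild-type expression in these same arrays, so the genotype values of these 5 genes are given as a description and carry no test.

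The table holds 8 Affymetrix arrays of mandibular molar epithelium from mouse embryos at embryonic day E13.5, separated with dispase, with the epithelia of 5 embryos of a single genotype pooled for each array. The 4 Foxi3 conditional knockout (cKO) pools are labelled K14-cre43;Foxi3-floxed, and the study's design text gives them a null allele opposite the floxed one (K14-cre43;Foxi3-/floxed). The 4 control pools bear the title wild type and the genotype label Foxi3+/floxed, so each genotype carries a floxed allele by that label. The keratin 14 promoter that drives the Cre is active in epithelium. Effects of the deletion, of the Cre itself and of the null allele cannot be told apart. The level of Foxi3 and the markers of epithelium, mesenchyme, blood and other cell types were not analysed here, because no table used here pairs their symbols with the identifiers.

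The 5 products act in linked reactions at the cell surface. Entpd1 (CD39) removes phosphates from extracellular ATP and ADP to leave AMP, Enpp1 splits ATP into AMP and pyrophosphate, and Nt5e (CD73) converts AMP into adenosine and phosphate. Ank is a membrane protein needed for the release of pyrophosphate from cells, and Alpl, the tissue-nonspecific alkaline phosphatase, cleaves pyrophosphate, a blocker of mineral formation, into phosphate. Alpl and Nt5e are both held in the membrane by a glycosylphosphatidylinositol anchor. Alkaline phosphatase is known in the tooth from the stratum intermedium, the epithelial layer beside the later enamel-forming cells, and from mineralising mesenchymal cells.

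In the cKO epithelium the 2 enzymes at the end of the chain were low: Nt5e stood at 45.6% and Alpl at 52.9% of the wild-type expression, as the difference of the log2 means gives it. The remaining genes did not share a fall of that size: Enpp1 was at 88.9%, Entpd1 at 99.3% and Ank at 99.7% of wild type, each with overlapping groups. Entpd1 was among the dimmest 40% of genes and Enpp1 not far above them, and whether their signals lay above background is not known. Among the 5 genes 2 were called lower and none higher in a limma fit over the whole table (adjusted p under 0.05), in which 1.31% of all genes were called, 0.619% lower and 0.688% higher. Without wild-type replicate 2, which stood apart, the same 2 genes were called lower, against 0.581% of all genes. Because the same contrast chose the genes, nothing is read from these counts. The median difference of the 5 genes was −0.17 on the log2 scale, which is the value of Enpp1, against −0.018 over all genes. The median rests on the same contrast, and nothing is read from it either.

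The deposited values are log2 expression after RMA, which corrects the background, equalises the arrays and summarises the probes of a gene, so a difference of 1 is a 2-fold change. Wild-type replicate 2 stood apart from the rest: its median over all genes was 5.44, against 5.25 to 5.30 on the other 7 arrays, and its root mean square deviation from the other arrays of its genotype was 0.276, against 0.144 to 0.205. Values without it are therefore given beside those with it. Probes differ between genes, so a level is compared only within a gene.

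Alpl, which supplies phosphate by cleaving pyrophosphate and other phosphate esters, had log2 expression of 7.34, 7.38, 7.28 and 7.39 in wild-type replicates 1 to 4 and of 6.52, 6.40, 6.41 and 6.38 in cKO replicates 1 to 4. Every cKO pool lay below every wild-type pool, and the highest cKO value, in replicate 1, was 0.76 below the lowest wild-type value, in replicate 3. The ranges inside the groups were 0.11 in wild type and 0.14 in the cKO, so the gap was larger than the spread of either group. Wild type averaged 7.35 ± 0.05 and the cKO 6.43 ± 0.062 (SD, n = 4 each), a difference of −0.92 (SE 0.048), or 1.89-fold lower in the cKO. Without wild-type replicate 2 the wild-type mean was 7.34 ± 0.057 (SD, n = 3) and the difference −0.91. A fall at least this large was seen in 18 of the 26165 genes, Alpl included. In bulk epithelium, fewer cells that express a gene and less RNA per cell cannot be told apart.

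Nt5e, the enzyme that forms adenosine from AMP, had log2 expression of 8.48, 8.46, 8.55 and 8.59 in wild-type replicates 1 to 4 and of 7.40, 7.47, 7.45 and 7.23 in cKO replicates 1 to 4. The groups did not overlap, and cKO replicate 4 was the lowest pool. The gap between the lowest wild-type and the highest cKO value was 0.98, while the ranges were 0.14 within wild type and 0.25 within the cKO. Wild type averaged 8.52 ± 0.064 and the cKO 7.39 ± 0.111 (SD, n = 4 each). The difference was −1.13 (SE 0.064), 2.19-fold lower in the cKO, and 10 genes of the table, Nt5e included, fell at least as far. Without wild-type replicate 2 the wild-type mean was 8.54 ± 0.057 (SD, n = 3) and the difference −1.16. Groups that do not overlap, as for Alpl and Nt5e, were found in 7.85% of all genes, and in 3.71% with the cKO on the lower side.

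**Figure D1:**
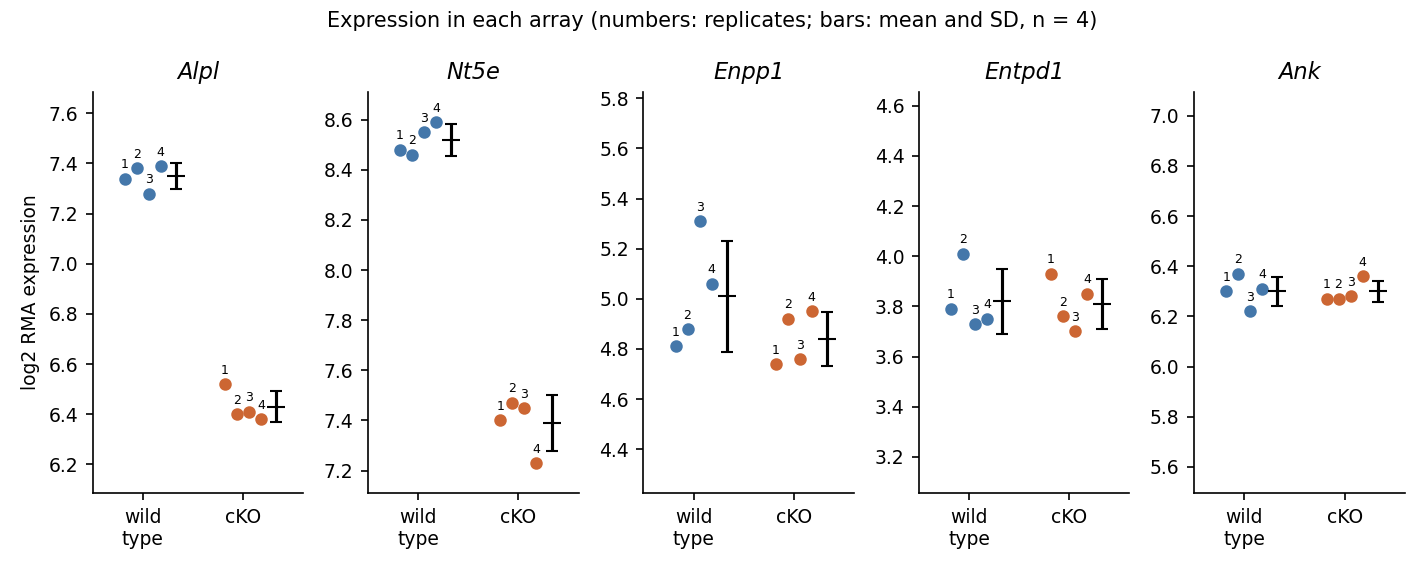
Log2 RMA expression (vertical axis, the same height of log2 scale in each panel) of the 5 genes in the 4 wild-type arrays (blue) and the 4 cKO arrays (orange). Points are arrays with their replicate number, and black bars are the mean and SD of 4 arrays. Alpl falls from 7.35 to 6.43 and Nt5e from 8.52 to 7.39 with no overlap, whereas the groups overlap for Enpp1, Entpd1 and Ank.

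The sequences before the annotated starts of Alpl and Nt5e are printed because these are the members that were low together. They are RefSeq promoter windows of build GRCm38.p6, matched by gene symbol, cut to the 250 bases that end just before the transcription start and written 5′ to 3′ on the gene's own strand. All 5 genes had a window, 7 windows in all, since Alpl and Entpd1 have 2 annotated starts each. Capitals mark matches, on either strand and with overlaps allowed, to the forkhead core TAAACA, the TCF/LEF core CTTTGA, the GC box GGGCGG or the TATA box TATAAA.
Alpl, upstream start, chr4:137796385-137796634, minus strand: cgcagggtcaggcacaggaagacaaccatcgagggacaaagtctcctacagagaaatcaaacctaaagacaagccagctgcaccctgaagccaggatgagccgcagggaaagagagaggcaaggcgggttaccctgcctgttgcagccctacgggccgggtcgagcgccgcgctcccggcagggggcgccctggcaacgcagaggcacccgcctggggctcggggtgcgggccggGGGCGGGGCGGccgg
Alpl, downstream start, chr4:137766476-137766725, minus strand: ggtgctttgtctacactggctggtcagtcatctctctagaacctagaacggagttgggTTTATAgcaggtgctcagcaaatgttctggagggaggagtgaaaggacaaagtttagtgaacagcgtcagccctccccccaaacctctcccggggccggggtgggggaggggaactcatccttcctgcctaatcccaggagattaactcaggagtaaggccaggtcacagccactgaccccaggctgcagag
Nt5e, chr9:88327359-88327608, plus strand: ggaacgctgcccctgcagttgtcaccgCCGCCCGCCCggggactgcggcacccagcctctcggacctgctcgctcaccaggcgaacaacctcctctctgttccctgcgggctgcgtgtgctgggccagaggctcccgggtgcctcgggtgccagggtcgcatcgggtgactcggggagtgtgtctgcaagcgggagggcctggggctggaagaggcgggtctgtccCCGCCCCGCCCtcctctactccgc

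The letters of the forkhead core were in none of the 7 windows, and 12% of the 32851 promoter windows of the same length hold them. That says only that these letters are not in these windows. The upstream Alpl window held 2 overlapping GC boxes next to the start and the Nt5e window held 4, in 2 overlapping pairs, while the downstream Alpl window held none. The GC box was also present in the windows of Enpp1 (1 match) and Ank (2 matches), which did not share the falls of Alpl and Nt5e, and in 32.7% of all windows. The downstream Alpl window held 1 TATA box match, on the opposite strand and nearer the far end of the window than the start. A match anywhere on either strand was found in 12.4% of all windows. Enpp1 held 2 matches to CTTTGA, the only form of the TCF/LEF core that was searched, and 13.8% of all windows hold it. The GC content was 68.4% and 56.0% in the upstream and downstream Alpl windows and 72.0% in the Nt5e window, against a median of 52.4% over all windows. It was 81.2% in the Ank window, the highest of the 7, 61.2% in the Enpp1 window, and 62.4% and 47.2% in the Entpd1 windows, so a high GC content was not particular to the genes that were low. Which of the Alpl starts is used in molar epithelium was not measured, because the table gives 1 value per gene.

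Enpp1, which makes pyrophosphate and thereby opposes Alpl, had log2 expression of 4.81, 4.88, 5.31 and 5.06 in wild-type replicates 1 to 4 and of 4.74, 4.92, 4.76 and 4.95 in cKO replicates 1 to 4. Wild-type replicate 3 was the highest pool, and wild-type replicates 1 and 2 lay inside the range of the cKO pools. The means were 5.01 ± 0.221 in wild type and 4.84 ± 0.108 in the cKO (SD, n = 4 each), a difference of −0.17 (SE 0.11) that was not called. Its 95% interval ran from −0.42 to 0.08, or from a fall of 1.34-fold to a rise of 1.06-fold, given as its precision. The size rested largely on wild-type replicate 3: the difference was −0.07 without that array, and −0.22 without wild-type replicate 2. Enpp1 also varied more inside the groups than most genes, with a pooled SD of 0.174 that exceeded those of 76.5% of the genes in the table.

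Entpd1, which starts the breakdown of extracellular ATP, had log2 expression of 3.79, 4.01, 3.73 and 3.75 in wild-type replicates 1 to 4 and of 3.93, 3.76, 3.70 and 3.85 in cKO replicates 1 to 4. The groups overlapped almost wholly, with wild-type replicate 2 highest and cKO replicate 3 lowest. Wild type averaged 3.82 ± 0.131 and the cKO 3.81 ± 0.101 (SD, n = 4 each). The difference of −0.01 (SE 0.078) had a 95% interval from −0.19 to 0.17. Without wild-type replicate 2 it became 0.05, with a wild-type mean of 3.76 ± 0.031 (SD, n = 3). The table has no detection call, so whether its signal lay above background is not known.

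Ank, which serves the release of pyrophosphate, had log2 expression of 6.30, 6.37, 6.22 and 6.31 in wild-type replicates 1 to 4 and of 6.27, 6.27, 6.28 and 6.36 in cKO replicates 1 to 4. The wild-type pools spanned the whole range of the cKO pools. Both genotypes averaged 6.30, with an SD of 0.059 in wild type and 0.043 in the cKO (n = 4 each). The difference of −0.0041 (SE 0.046) had a 95% interval from −0.11 to 0.10, or from a fall of 1.08-fold to a rise of 1.07-fold, given as its precision. The wild-type mean was 6.28 ± 0.049 (SD, n = 3) and the difference 0.02 without wild-type replicate 2. The pooled SD of Ank within the genotypes was 0.052, and 14.1% of the genes in the table had a smaller one.

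**Figure D2:**
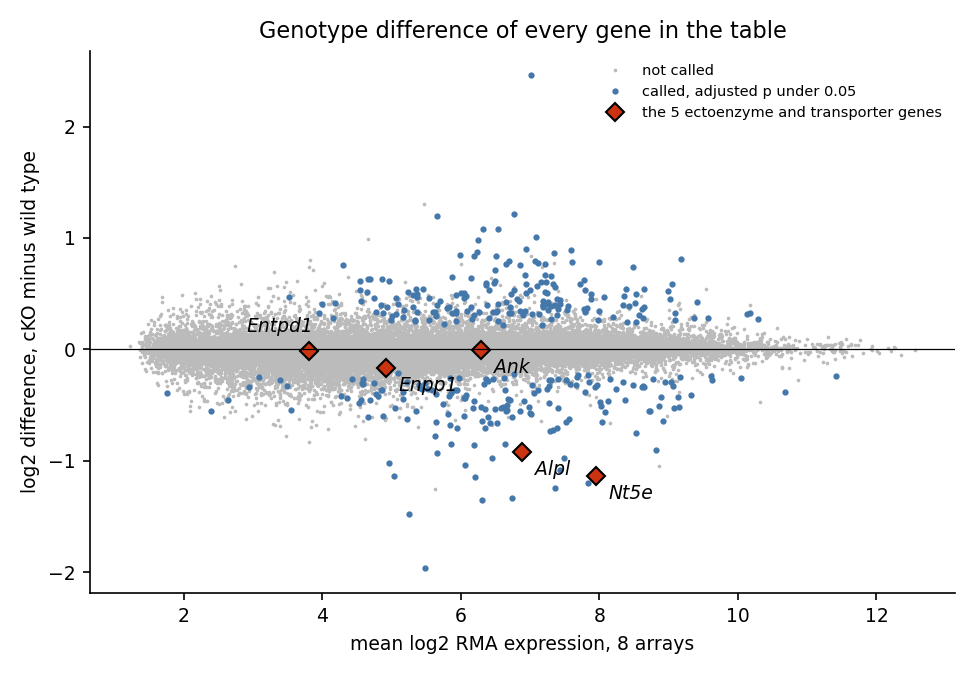
Each point is a gene, with its mean log2 RMA expression over the 8 arrays on the horizontal axis and its log2 difference, cKO minus wild type, on the vertical axis. Grey points were not called, blue points were called at a limma adjusted p under 0.05, and red diamonds are the 5 genes. Alpl (−0.92) and Nt5e (−1.13) lie at the lower edge of the cloud, while Enpp1, Entpd1 and Ank lie within it.

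Whether the spread of the pools within a genotype entered the choice of the genes is not stated, so its values are a description only. The pooled SD was 0.056 for Alpl and 0.091 for Nt5e, and 17% and 40% of the genes in the table had a smaller one. The pooled SD of Entpd1 was 0.117, and 55.1% of the genes had a smaller one.

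Genes that followed Alpl or Nt5e across the arrays were ranked by the root mean square difference, over the 8 arrays, between the deviations of the genes from their own means, where a lower value is a closer pattern. The genotype difference dominates this measure, so it returns genes with a fall of similar size. Alpl and Nt5e differed by 0.137 on the log2 scale; Nt5e was the 10th closest of 26164 genes to Alpl, and Alpl the 5th closest to Nt5e. The gene closest to Alpl was ENSMUSG00000056222, at 0.092, whose log2 expression was 6.06 to 6.20 in wild type and 5.01 to 5.31 in the cKO. The gene closest to Nt5e was ENSMUSG00000051177, at 0.051, with 5.44 to 5.74 in wild type and 4.29 to 4.55 in the cKO. This gene was lowest in cKO replicate 4 and highest in wild-type replicate 4, the arrays in which Nt5e had its own lowest and highest values. The ranking picked it as the closest of 26164 genes over these same arrays, so nothing is read from this match. The differences were −0.93 (SE 0.071) for ENSMUSG00000056222 and −1.14 (SE 0.084) for ENSMUSG00000051177. The symbols of these identifiers were not used here.

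**Figure D3:**
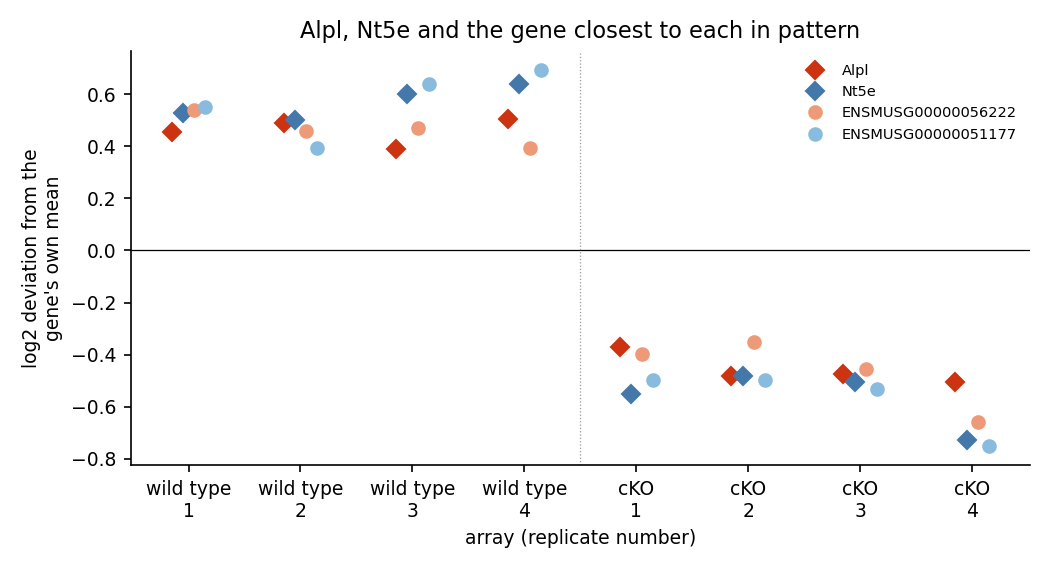
Log2 deviation from each gene's own mean (vertical axis) in the 8 arrays (horizontal axis) for Alpl and Nt5e (diamonds) and for the gene closest in pattern to each (circles of the paler colour). Wild-type arrays are left of the dotted line and cKO arrays right of it. Nt5e and ENSMUSG00000051177 both reach their lowest value in cKO replicate 4, at −0.728 and −0.753. ENSMUSG00000051177 was picked for its closeness to Nt5e over these same arrays.

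Alpl and Nt5e were low in the cKO under each of the 15 alternative settings run for single genes. These left out 1 array at a time or changed the normalization, the variance model or the genes tested. A block of replicate numbers, another variance prior or fewer genes tested cannot alter the difference, only its error and call. The difference ran from −0.95 to −0.88 for Alpl and from −1.16 to −1.08 for Nt5e, and both were called each time. Enpp1 ran from −0.24 to −0.07 and was not called under any of them. Entpd1 ran from −0.05 to 0.05 over 14 settings and Ank from −0.03 to 0.03 over 15, each with either sign and no call. These ranges describe the arrays that chose the genes and give no independent support.

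**Figure D4:**
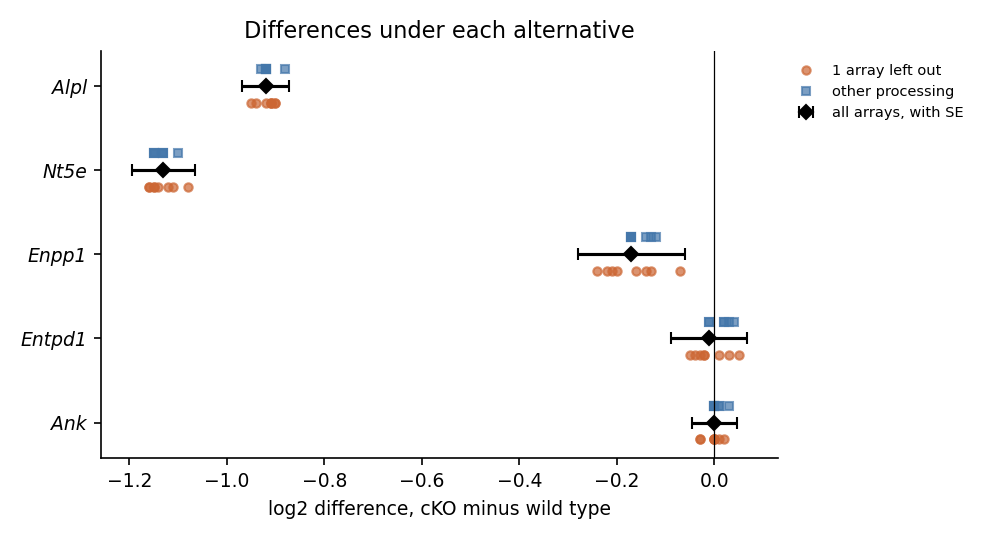
Log2 difference, cKO minus wild type (horizontal axis), of the 5 genes. Black diamonds with bars are the values over all 8 arrays with their SE, orange circles leave out 1 array, and blue squares use another processing. Alpl and Nt5e stay between −1.16 and −0.88, Enpp1 between −0.24 and −0.07, and Entpd1 and Ank around 0.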

How the data were processed

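RNA from 8 pools was hybridised to 1 array each. The authors deposited log2 values. The submitters' processing notes name RMA, and its version, the array model and the build are not given in the sources used here. The values ran from 1.13 to 12.63, no arrays were identical, and all 8 columns were matched by sample accession. The members and lists were chosen with earlier results of these data known. The symbols of the 5 identifiers came with that choice. The gene table used here held 0 Ensembl identifiers, so 6 lists of phosphate, purine, mineral and membrane anchor genes, Foxi3 and cell type markers were not analysed here.

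A linear model was fitted to all 26165 genes, without filter, by limma 3.58.1 under R 4.3.3 (lmFit, eBayes, default prior), the sole term being genotype, two-sided, with Benjamini-Hochberg adjustment and calls at an adjusted p under 0.05. Named genes were the 5 members and, by identifier, the gene closest to Alpl and to Nt5e. The fit was tested on simulated data. Whether the pools came from separate litters is not stated, so errors measure the spread between these pools. The number of arrays limits the precision. Alternatives were a replicate block, omission of single arrays, a further quantile normalization, median centring, cyclic loess, a trend and robust prior, array weights, dropping the dimmest 40% of genes and gene-by-gene variance.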

Additional observations from a re-analysis of the deposited data

Results flagged for a closer look

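The 5 genes and the array medians were checked in each genotype for an array lying far above or below the remaining 3, which made 12 checks, and chance flags about 1 in 20. Ank in cKO replicate 4 had a log2 expression of 6.36, against 6.27 to 6.28 in the other cKO arrays. Without that array the Ank difference was −0.03, still not called. The median over all genes was 5.44 on wild-type replicate 2 and 5.25 to 5.28 on wild-type replicates 1, 3 and 4.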

How the results depend on the processing

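No single-gene difference moved by as much as its pooled SD, but under most settings it could not have done so. Leaving out 1 array of a genotype shifts a difference by less than that in any case. The replicate block, the trend and robust prior and dropping the dimmest genes leave a difference as it is. Only the other normalizations and the array weights could have moved it that far. The members called lower stayed at 2 under all 16 settings. The sign of Entpd1 and of Ank changed with the setting. The 342 calls over all genes became 18 with the replicate number as a block, 196 with arrays centred on their median (66.8% of them higher), 575 with array weights, 181 with gene-by-gene variance and 119 to 303 with 1 array left out; leaving out an array means fewer samples, and the other causes were not tested. Each replicate number occurs once per genotype, so the block could not change the differences of Alpl and Nt5e, −0.92 and −1.13. With it their SEs rose from 0.048 to 0.056 and from 0.064 to 0.076, and both genes were among the 18. Nothing in the labels ties same-numbered pools to a litter or day. Deviations of same-numbered pools correlated at −0.046, −0.09, −0.037 and 0.02, and 1 of 8 arrays correlated best with its own number. Leaving out 1 array gave −0.95 to −0.90 for Alpl, −1.16 to −1.08 for Nt5e, −0.24 to −0.07 for Enpp1, −0.05 to 0.05 for Entpd1 and −0.03 to 0.02 for Ank. Entpd1 has no value without the dimmest 40% of genes, being one of them (limit 4.72). The alternatives for the 6 lists were not run.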
